A study of Mus musculus with 28 samples.

Results

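The 9 genes Cgnl1, Stag1, Adam12, Aopep, Mblac2, Abca8a, Rad51b, Hmox2 and Nr2c2 were picked by name, out of 49554 annotated mouse genes, because they carried less H3K9me3 in Setdb1 knockout than in control B16 melanoma cells and are not neural genes. The B16 H3K9me3 values therefore chose the genes and are given here as a description, without a test. The choice did not rest on H3K9me3 in the colon adenocarcinoma line MC38 or on H3K9Ac in either line. Earlier results of these data were known when the genes were chosen, however. Chromatin immunoprecipitation with sequencing (ChIP-seq) of both marks was carried out on MNase-digested chromatin of B16OVA (B16 below), a mouse melanoma line expressing ovalbumin, and of MC38. Controls had been transduced with the pCRISPR-v2-puro vector without a guide, and the knockout (KO) cells with the same vector carrying a guide against Setdb1. All groups thus shared the vector backbone and grew in puromycin. Each line, genotype and mark had 3 libraries, 24 in all, each deposited as a list of islands, which are stretches of the genome called as enriched, with the reads counted in each. The 4 inputs were not analysed here. Whether a KO line was a pool or a clone, and whether replicates were separate cultures, is not given in the sources used here, so p-values measure the spread between these libraries, which may be technical.

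SETDB1 is a histone methyltransferase that places trimethyl groups on lysine 9 of histone H3. The mark, H3K9me3, is bound by HP1 proteins and is known for silencing retrotransposons and other repeats, to which SETDB1 is brought by KRAB zinc finger proteins and TRIM28. H3K9Ac, the acetyl form of the same lysine, marks active promoters and enhancers, and a given lysine cannot carry both. In a bulk population, a mark on fewer cells and less of it per cell cannot be told apart.

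The genes have unrelated functions. Cgnl1 encodes paracingulin, a scaffold of epithelial cell junctions (chr9:71626507-71809300, minus strand, 182.8 kb). Stag1 encodes a subunit of cohesin, the ring complex that holds and loops DNA (chr9:100597709-100958544, plus strand, 360.8 kb). Adam12 encodes a membrane metalloprotease (chr7:133883199-134225097, 341.9 kb, strand not given in the gene table). Aopep encodes an aminopeptidase of the M1 family (chr13:62964893-63326096, plus strand, 361.2 kb), and Mblac2 a protein with a metallo-beta-lactamase fold (chr13:81711417-81753275, plus strand, 41.9 kb). Abca8a encodes an ATP-driven lipid transporter (chr11:110025634-110097580, minus strand, 71.9 kb). Rad51b encodes a protein of DNA repair by homologous recombination (chr12:79297282-79848260, plus strand, 551.0 kb). Hmox2 encodes the constitutive heme oxygenase, which breaks heme down to biliverdin (chr16:4726361-4766742, plus strand, 40.4 kb). Nr2c2 encodes an orphan nuclear receptor (chr6:92091418-92173058, plus strand, 81.6 kb). Coordinates are those of RefSeq's GRCm38.p6 (mm10). Positions below are in kb from the end of the gene with the lower coordinate. Several regions hold other genes (Cdip1 in that of Hmox2, Fancc and the Mir23b cluster in Aopep, Mrps25 in Nr2c2, Polr3g in Mblac2, Fank1 in Adam12 and Zfyve26 in Rad51b), and an island in the shared stretch cannot be given to either gene.

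Promoter sequences were at hand for 8 of the 9 genes (11 entries in RefSeq's GRCm38.p6 table of 32851 promoters, each 250 bases before to 50 after an annotated start). Shown are 3 of them. The start 15.3 kb inside Hmox2 lay in an H3K9me3 island of the B16 controls other than replicate 1, and in an H3K9Ac island of B16 KO cells. The next start of Hmox2 is given for comparison. The start of Abca8a was acetylated in 1 line only. The sequences run 5′ to 3′ on the gene's own strand, with each CG pair, the site of DNA methylation, in capitals. CG reads the same on both strands.

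Hmox2 start at 15.3 kb, chr16:4741363-4741662, plus strand: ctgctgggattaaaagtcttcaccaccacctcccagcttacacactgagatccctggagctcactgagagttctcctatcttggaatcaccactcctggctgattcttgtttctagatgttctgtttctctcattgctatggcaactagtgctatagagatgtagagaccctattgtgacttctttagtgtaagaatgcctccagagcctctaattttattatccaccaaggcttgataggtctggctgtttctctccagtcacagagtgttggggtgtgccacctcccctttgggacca

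Hmox2 start at 30.5 kb, chr16:4756631-4756930, plus strand: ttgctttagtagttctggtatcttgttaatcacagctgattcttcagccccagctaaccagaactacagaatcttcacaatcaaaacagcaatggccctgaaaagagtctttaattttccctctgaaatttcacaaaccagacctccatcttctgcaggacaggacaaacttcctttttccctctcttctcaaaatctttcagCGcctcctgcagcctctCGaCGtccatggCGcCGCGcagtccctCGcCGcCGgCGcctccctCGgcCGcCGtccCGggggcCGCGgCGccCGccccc

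Abca8a, chr11:110095888-110096187, minus strand: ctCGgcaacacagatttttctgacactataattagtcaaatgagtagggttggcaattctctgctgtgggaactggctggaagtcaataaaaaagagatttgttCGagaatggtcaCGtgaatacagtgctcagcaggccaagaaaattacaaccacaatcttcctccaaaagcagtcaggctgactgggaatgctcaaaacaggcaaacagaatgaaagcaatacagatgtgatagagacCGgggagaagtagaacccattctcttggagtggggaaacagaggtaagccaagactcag

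The Hmox2 promoter at 15.3 kb held no CG, a property of 5.43% of all promoters in the table. The Hmox2 promoters at 30.5 kb and 30.6 kb held 18 and 29, and 71.9% and 88.3% of promoters had that many or fewer. The Abca8a promoter held 4, and 38.0% of promoters had as few. The other genes' promoters held between 10 (Rad51b) and 43 (Stag1) CG pairs. Among the 11 promoters, the one without a CG was the only one touched by an H3K9me3 island in any library of that mark. The islands lay over 0, 62 and 300 of its bases in the 3 B16 controls. The share of all promoters so touched was not counted, so this promoter shows no link between CG content and the mark.

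Libraries held 15200766 to 45419584 H3K9me3 island reads and 28453371 to 78087809 H3K9Ac island reads. H3K9me3 islands covered more of the genome in B16 KO (367.0 to 430.9 Mb) than in B16 control libraries (284.9 to 325.5 Mb), and H3K9Ac islands did too (436.8 to 448.3 Mb against 380.3 to 423.4 Mb). In MC38 KO, H3K9me3 cover ran from 215.4 Mb in replicate 3 to 563.4 Mb in replicate 1. Markers were checked by H3K9Ac within 2 kb of the gene ends. All 8 melanocyte markers had H3K9Ac islands in all 6 B16 libraries (summed level 124.6 to 169.1 island reads per 1000000, RPM) and 3 of 8 in all 6 MC38 libraries (26.4 to 43.2 RPM), where Tyr, Tyrp1 and Dct had none. Colon epithelium markers had islands in all 6 MC38 libraries at 5 of 8 genes (46.1 to 56.3 RPM) and in all 6 B16 libraries at 4 of 8 (21.9 to 41.1 RPM). Leukocyte markers had them at 3 of 6 genes in each line (24.3 to 38.9 RPM in B16, none at Ptprc and Itgam, and 22.4 to 36.7 RPM in MC38). Of 6 fibroblast markers, 4 had them in B16 (22.4 to 31.4 RPM) and 2 in MC38 (16.1 to 32.3 RPM), with none at Dcn and Lum in either line.

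In B16 control cells the H3K9me3 of these genes lay in short islands, and most of them were not called in KO cells. The 3 control libraries held 110 islands in the 9 gene regions (start to end plus 2 kb on each side), 800 to 9000 bp wide with a median of 2600 bp. The 3 KO libraries held 16, 1200 to 5200 bp wide with a median of 2500 bp. No library of either line had more than 23.2% of a gene region under H3K9me3 (Abca8a in MC38 KO replicate 2). In B16 controls the share ran from 1.42% (Aopep) to 15.3% (Cgnl1).

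**Figure D1:**
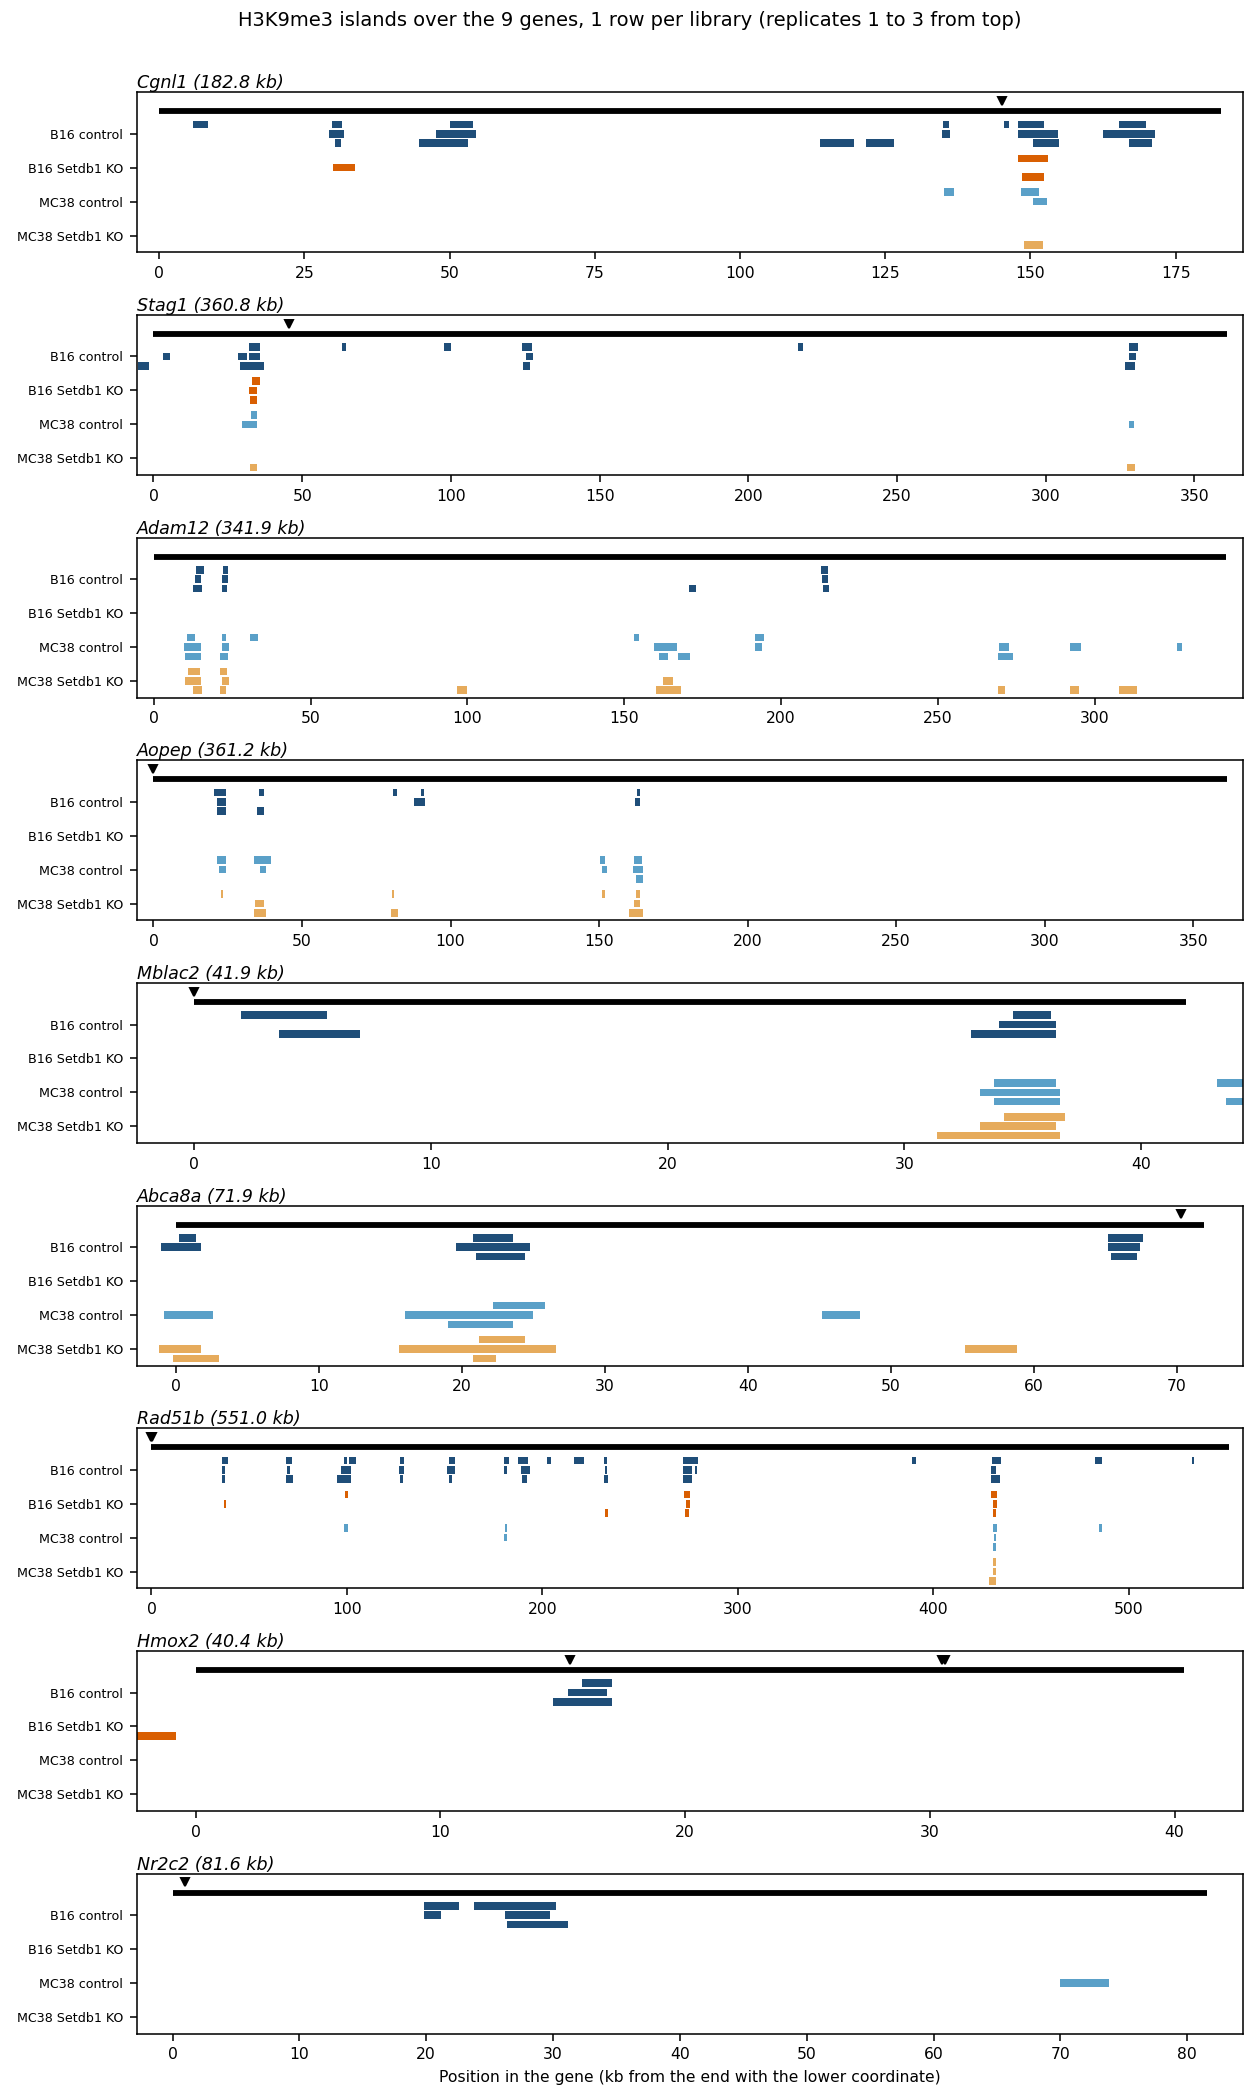
H3K9me3 islands (coloured bars) along the 9 genes, 1 line of bars per library, plotted against the distance in kb from the lower-coordinate end of the gene. Black bars are the genes and triangles annotated starts. The islands are narrow against the genes, and 5 genes have none in any B16 KO library.

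By level, given in RPM (island reads of the region per 1000000 counted reads, scaled by TMM), the 9 genes fell into those with remaining islands and those without. Rad51b had the most, 377, 196 and 201 RPM in control replicates 1 to 3 and 52.2, 35.9 and 32.8 RPM in KO replicates 1 to 3. Cgnl1 had 136, 142 and 154 RPM in controls and 25.1, 19 and 18.7 RPM in KO cells. Stag1 had 107, 86.4 and 81.0 RPM in controls and 15.5, 14.8 and 14.2 RPM in KO cells. These 3 genes kept an island in every KO library. At Hmox2 the controls had 10.7, 10.9 and 16.7 RPM and the KO libraries 0, 0 and 6.25 RPM, but the island of KO replicate 3 lay at -4.2 to -0.8 kb, in the flank, where no control had one.

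The other 5 genes had islands in all 3 controls and in no KO library, a pattern found in 2.1% of the 25677 gene regions tested. Adam12, the metalloprotease gene, had 46.3, 37.9 and 57.5 RPM in its controls, and Aopep 73.0, 43.5 and 34.2 RPM. Mblac2 had 38.0, 13.9 and 41.0 RPM and Abca8a 52.2, 61.2 and 33.7 RPM. Nr2c2, the nuclear receptor gene, had 64.9, 35.6 and 30.6 RPM. No island called in a library means fewer reads than the caller asks for, not that none were there, so no fold is given for these genes. For all 9 genes every KO library lay below every control (9.44% of all regions). The counts of 5 and of 9 genes follow from how the genes were chosen. Over the whole table edgeR called 0.148% of regions lower (adjusted p under 0.05). No call is given for the 9 genes, because this contrast chose them.

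Islands that overlapped between libraries of either line were joined into 63 loci, a step defined after the islands had been seen. In B16 controls 49 loci had an island in some library and 25 in all 3. Of those 25, 17 had none in any KO library and 8 had one in at least 1 KO library. Loci of both kinds stood side by side in Cgnl1, Stag1 and Rad51b. In Rad51b, 4 of 9 loci were in no KO library, at 68.7 to 72.3, 126.7 to 129.3, 151.3 to 155.3 and 187.5 to 193.5 kb. The Rad51b locus at 428.7 to 434.5 kb was called in all 12 H3K9me3 libraries, with 366, 214 and 321 island reads in B16 controls and 254, 134 and 146 in B16 KO cells. The Rad51b locus at 271.9 to 279.5 kb was in all 6 B16 libraries and in no MC38 library, with 623, 294 and 287 reads in controls and 204, 101 and 117 in KO cells. Its widest island in each library was 7.6, 4.2 and 4.4 kb in controls and 3.0, 2.0 and 1.8 kb in KO cells. The Stag1 locus at 28.3 to 37.3 kb was in all 6 B16 and 3 of the MC38 libraries. These 3 were the loci called in every B16 KO library.

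In 5 kb windows the same picture was focal. The 9 genes spanned 425 windows of a fixed grid of 526333. In 30 of them at least 500 bp were under H3K9me3 in all 3 B16 controls, and in 21 of the 30 no KO library had an island (70.0%, against 4.63% of all windows with the mark in all controls). This share, too, follows from the choice of the genes. Some of the 21 windows adjoin and hold parts of the same locus, so they are not all separate sites. These are Cgnl1 at 163.5 and 168.5 kb and Nr2c2 at 23.6 and 28.6 kb. In Rad51b they are those at 122.7 and 127.7 kb and those at 147.7 and 152.7 kb.

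In MC38, where the genes were not chosen, no fall of H3K9me3 over the gene regions passed the test. In edgeR's quasi-likelihood fit across all gene regions, 0 of the 9 were called (0.136% of all regions), 1 had an unadjusted p under 0.05 (6.85% of all regions) and DESeq2 called 1 (7.17% of all regions). Both of these were Nr2c2, with 0, 21.2 and 0 RPM in MC38 controls and 0 RPM in each KO library, a difference that rests on 1 library. For 0 of 9 genes did the KO libraries lie all below or all above the controls (1.73% and 0.596% of all regions). Hmox2 had no H3K9me3 island in any MC38 library.

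Adam12 had more H3K9me3 in MC38 than in B16, with 84.0, 179 and 126 RPM in MC38 controls and 41.1, 77.5 and 222 RPM in MC38 KO libraries, which overlap. The KO minus control difference was -0.19 on the log2 scale (SE 0.734, adjusted p = 1.0, edgeR). Aopep had 111, 78.5 and 24.9 RPM in MC38 controls and 41.5, 37.9 and 104 RPM in KO libraries (log2 -0.23, SE 0.811). Abca8a, the lipid transporter gene, had 22.5, 96.9 and 31.9 RPM against 20.1, 109 and 42.6 RPM (log2 0.18, SE 0.907). Replicates of 1 group differed as much as the groups did. Mblac2 had 38.5, 27.7 and 25.7 RPM in MC38 controls and 19.6, 22.8 and 43.4 RPM in KO libraries (log2 -0.10, SE 0.850), and these overlap too. Rad51b had 62.9, 27 and 14 RPM against 14.1, 11.7 and 29.3 RPM (log2 -0.91, SE 0.668). Cgnl1 and Stag1 were not called in MC38 control replicate 3 or in KO replicates 1 and 2, and lay at 16.8 to 49.7 RPM in the other libraries. With standard errors of this size, the values do not show that MC38 KO cells kept the mark at its control level.

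The same loci could be followed between lines. Of the 17 loci called in all B16 controls and in no B16 KO library, 6 had an H3K9me3 island in MC38. At the loci of Adam12 at 9.6 to 16 kb and 21.2 to 24 kb, Mblac2 at 31.4 to 36.8 kb and Abca8a at 15.6 to 26.6 kb, all 6 MC38 libraries had one, KO libraries included. The Mblac2 locus held 145, 107 and 200 reads in B16 controls, none in B16 KO islands, 186, 200 and 177 in MC38 controls and 232, 220 and 419 in MC38 KO libraries. The Abca8a locus held 239, 235 and 198 reads in B16 controls, then 134, 451 and 250 in MC38 controls and 237, 669 and 153 in MC38 KO libraries. In windows, 4 of the 21 with focal loss in B16 had H3K9me3 in all 6 MC38 libraries (against 9.28% of all such windows) and 15 had none in MC38 (71.4% against 39.3%). Adjoining windows of the same locus are counted apart in these shares. Whether the 2 lines differ in the KO effect at these H3K9me3 loci was not tested, because B16 H3K9me3 chose the genes.

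H3K9Ac, on which the choice did not rest, was present on all 9 genes in both lines. Over whole genes no change in it passed edgeR's test in either line. All 9 passed the filter of a mean of 10 reads. In B16, edgeR called 0 of the 9 regions (0.0839% of 33363), 2 had an unadjusted p under 0.05 (4.12% of all regions), and DESeq2 called 1 (Hmox2, adjusted p = 1.535e-06, beside 3.07% of all regions). In MC38, 0 were called (0.126% of all regions), 0 had an unadjusted p under 0.05 (3.13%), and DESeq2 called 0 (2.62%). The KO minus control differences ran from -0.19 (Mblac2) to 0.63 (Cgnl1) on the log2 scale in B16, with a median of 0.10 beside 0.0 over all regions. In MC38 they ran from -0.26 (Adam12) to 0.35 (Mblac2). The test of the difference between the lines in the KO effect gave an adjusted p of 1.0 for each of the 9 (edgeR), with the smallest unadjusted p at Hmox2 (0.01556, MC38 minus B16 effect -0.40 on the log2 scale).

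Hmox2 and Cgnl1 were the genes with more H3K9Ac in every B16 KO library than in any control (2 of 9, against 4.73% of all regions). Hmox2 had 37.6, 35.6 and 31.6 RPM in controls and 55.3, 47.5 and 45.4 RPM in KO libraries (log2 0.50, SE 0.096, unadjusted p = 0.0004228, adjusted p = 0.3712 by edgeR's quasi-likelihood fit, and adjusted p = 0.09651 with the replicate number as a block). H3K9Ac islands covered 29.2%, 29.2% and 23.3% of the Hmox2 region in controls and 62.5%, 47.6% and 43.6% in KO libraries. In MC38 the gene had 50.4 to 55.4 RPM in controls and 56.2 to 57.5 RPM in KO libraries, and was the 1 gene of the 9 with every MC38 KO library above every control (1.92% of all regions). Cgnl1, the junction gene, had 69.2, 62.7 and 75.2 RPM in B16 controls and 95.8, 107 and 118 RPM in KO libraries (log2 0.63, SE 0.228, unadjusted p = 0.01998, adjusted p = 1.0 by edgeR). H3K9Ac covered 18.1%, 12.4% and 18.2% of Cgnl1 in controls and 29.1%, 25.3% and 33.3% in KO libraries. By covered length, 10.1% of all regions had every B16 KO library above every control, along with the wider H3K9Ac cover of KO libraries over the genome, whose part in these values was not tested.

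**Figure D2:**
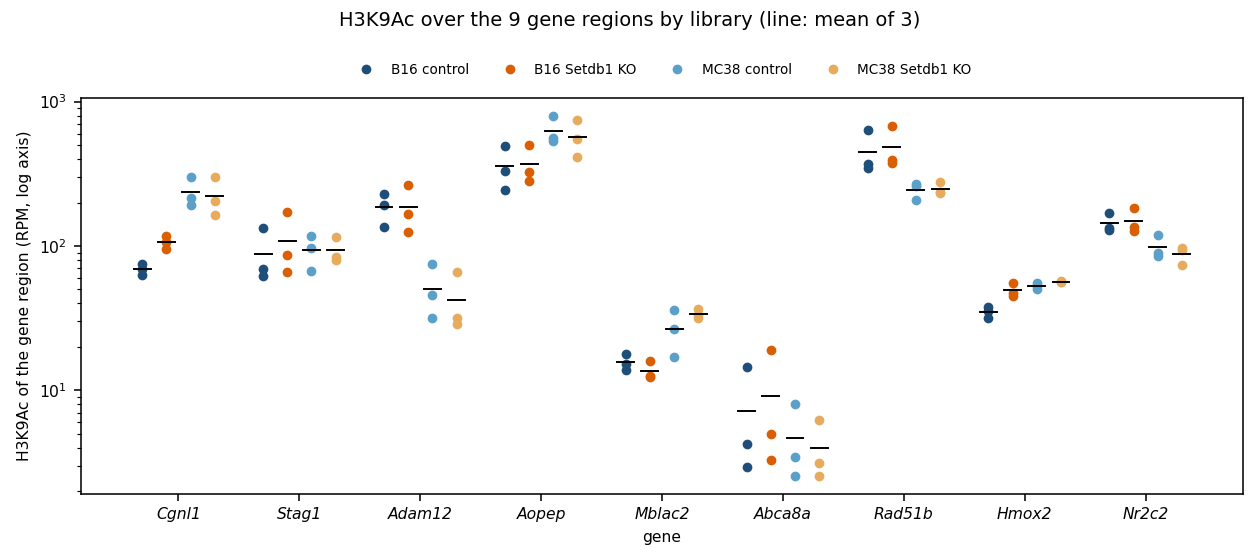
H3K9Ac of the 9 gene regions in RPM (log axis), 1 point per library with a line at the mean of the 3 libraries of a group. KO points lie above all control points for Hmox2 and Cgnl1 in B16 and, by a smaller margin, for Hmox2 in MC38.

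The lines were then compared in their controls. There, H3K9Ac of Cgnl1, Aopep and Hmox2 was higher in every MC38 than in every B16 library (19.3% of all regions), and that of Adam12, Rad51b and Nr2c2 was lower (19.5%). Cgnl1 had 236 ± 57.4 RPM in MC38 controls (SD, n = 3) against 69.0 ± 6.26 RPM in B16 controls. Adam12 had 50.7 ± 22.2 RPM in MC38 and 186 ± 46.9 RPM in B16 controls. Aopep had 629 ± 143 and 356 ± 124 RPM, and Rad51b 246 ± 33.8 and 449 ± 159 RPM. Nr2c2 had 98.5 ± 18.8 RPM in MC38 controls and 144 ± 22.2 RPM in B16 controls. Adam12 thus had less H3K9Ac in the line where its H3K9me3 was higher. Cgnl1 and Rad51b both had less H3K9me3 in MC38 controls, beside more H3K9Ac for Cgnl1 and less for Rad51b. Abca8a had the lowest mean H3K9Ac of the 9 in each of the 4 groups, with 2.56 to 19.2 RPM over the 12 libraries. Stag1 had 94.0 ± 25.4 RPM in MC38 and 88.5 ± 39.9 RPM in B16 controls, which overlap.

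At the annotated starts most genes were acetylated throughout. H3K9Ac islands covered all 300 bases of the promoters of Nr2c2, Stag1, Rad51b, Aopep and Mblac2 in all 12 libraries. The Abca8a promoter, printed above with 4 CG pairs, was covered in all 6 B16 libraries and in none of the 6 MC38 libraries. The Cgnl1 promoter was covered over 300, 248 and 0 bases in B16 controls and over 300, 300 and 248 bases in B16 KO libraries. The Hmox2 promoter at 15.3 kb was covered over 0 bases in each B16 control and over all 300 in each B16 KO and each MC38 library. The Hmox2 promoters at 30.5 and 30.6 kb were not covered in any library, although within 1 kb of the start at 30.5 kb 481 bp were acetylated in each B16 KO library and 0 in each B16 control.

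The place where the 2 marks changed over was then followed at the loci that had lost H3K9me3. The 17 loci, 87.4 kb in all, were under H3K9Ac over 2.0, 1.8 and 0.6 kb in B16 controls and over 4.6, 5.0 and 3.0 kb in KO libraries. As a share of their length this was 2.29%, 2.06% and 0.69% in controls and 5.26%, 5.72% and 3.43% in KO libraries. The 8 loci with an H3K9me3 island in some KO library had 2.87%, 10.7% and 0.41% of their length under H3K9Ac in controls and 9.84%, 16.8% and 9.02% in KO libraries, where the groups overlapped. The higher cover was thus not shown to be particular to the lost loci. In MC38 the 17 were acetylated over 6.0, 13.8 and 12.4 kb in controls and 9.8, 14.8 and 10.4 kb in KO libraries. Most of the lost loci thus had little H3K9Ac in B16 KO cells. Only the Hmox2 locus at 14.6 to 17 kb and the Nr2c2 locus at 23.8 to 31.2 kb had H3K9Ac in all 3 KO libraries and in no control.

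**Figure D3:**
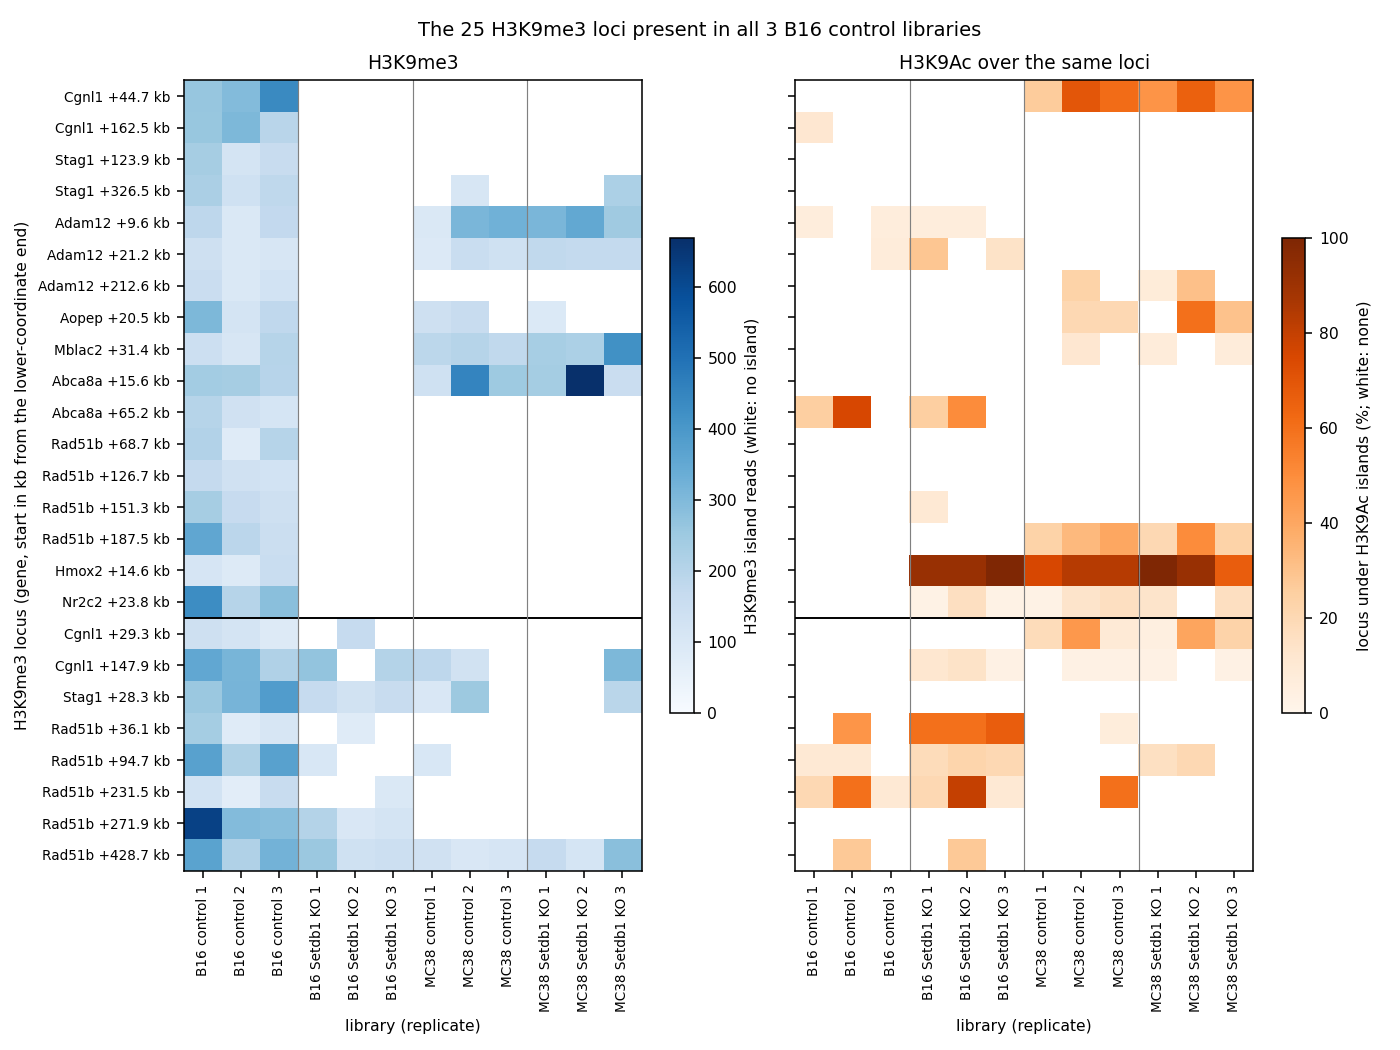
The 25 loci with an H3K9me3 island in all 3 B16 controls, 1 row each, by library. The left panel gives H3K9me3 island reads and the right panel the percent of the locus under H3K9Ac, and a horizontal line parts the 17 loci in no KO library from the 8 in at least 1. In the upper part, H3K9Ac over 2200 bp or more of a locus in all B16 KO libraries and none in controls is seen at Hmox2 alone.

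Hmox2 gave the fullest exchange. In B16 controls its H3K9me3 islands held 110, 84 and 155 reads, and the KO libraries had none at the locus. H3K9Ac covered 0 bp of the 2400 bp in each control and 2200, 2200 and 2400 bp in KO replicates 1 to 3. These belonged to H3K9Ac islands that reached from 9.4 to 16.8 kb (827 reads), from 8.8 to 16.8 kb (888 reads) and from 11.8 to 17 kb (407 reads), over the internal start. MC38, which had no H3K9me3 at Hmox2, had H3K9Ac islands over the same stretch in all 6 libraries, from 7.8 to 9.0 kb at one end to 16.2 to 17 kb at the other, with 390 to 1080 reads. KO replicates 1 to 3 held 78087809, 75667871 and 46529357 H3K9Ac island reads and the controls 46394754 to 58868155, and the part of depth in this difference was not tested. The smallest H3K9Ac islands called in the B16 libraries held 43 to 62 reads.

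In Nr2c2 the marks lay next to each other. The H3K9me3 locus of 7400 bp held 430, 200 and 283 reads in B16 controls. In KO libraries H3K9Ac covered 200, 1200 and 200 bp of it, at its edge, in islands at 31.0 to 35.0 kb (435 reads), 30.0 to 35.6 kb (613 reads) and 31.0 to 34.0 kb (208 reads). MC38 libraries had islands there too, between 30.0 and 34.4 kb, with 99 to 402 reads. In Rad51b, H3K9Ac islands of KO replicates lay at 154.9 to 159.1, 155.3 to 158.9 and 155.3 to 159.3 kb, at the edge of the H3K9me3 locus that ended at 155.3 kb, and no B16 control or MC38 library had one in that window. The Rad51b locus at 36.1 to 39.1 kb, with H3K9me3 in all controls and in KO replicate 2, had H3K9Ac over 0, 1400 and 0 bp in controls and 1800, 1800 and 2000 bp in KO libraries.

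**Figure D4:**
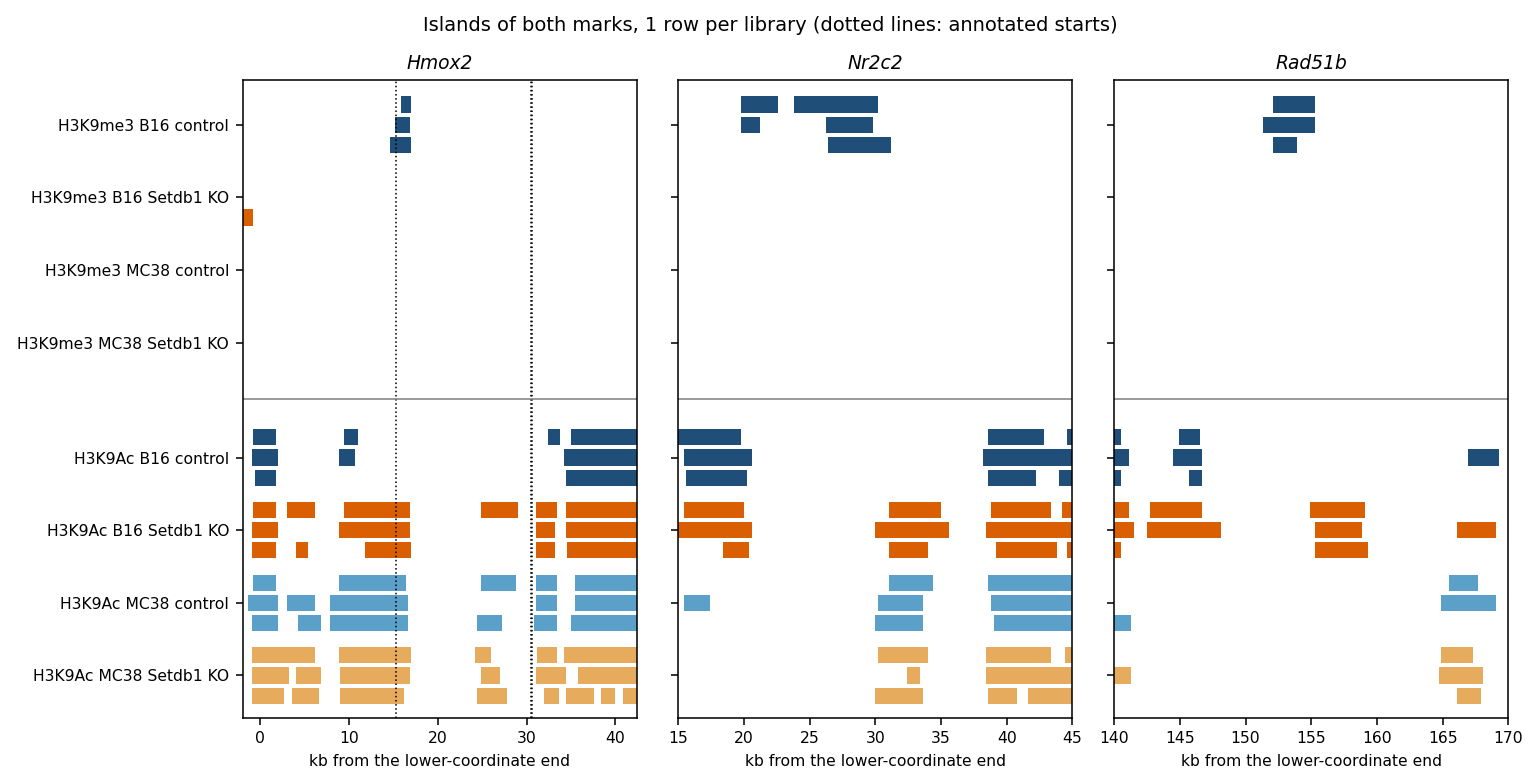
Islands of both marks in all 24 libraries over Hmox2, Nr2c2 from 15 to 45 kb and Rad51b from 140 to 170 kb, in kb from the lower-coordinate end of the gene. Dotted lines are annotated starts. The H3K9Ac islands of B16 KO lie over the control H3K9me3 islands in Hmox2 and beside them in Nr2c2 and Rad51b.

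Over the 21 windows with focal loss, 3 had H3K9Ac in all 3 KO libraries and in no B16 control (14.3%, against 1.28% of the 2726 windows with such a loss in the genome): Hmox2 at 13.6 kb, Nr2c2 at 28.6 kb and Rad51b at 152.7 kb. Over all 425 windows of the genes 6 had this H3K9Ac pattern (0.251% of all windows), the other 3 being Cgnl1 at 103.5 kb, with 2.65, 3.75 and 3.7 RPM in KO libraries, Aopep at 75.1 kb and Rad51b at 157.7 kb. The Rad51b windows at 152.7 and 157.7 kb adjoin and hold parts of the same KO islands, so they are not separate sites. The reverse, H3K9Ac in all controls and no KO library, was found in 0 of 21 (0.0367%). H3K9Ac in all 6 MC38 libraries, with no H3K9me3 there, was found in 5 of the 21 (23.8%, against 7.23%).

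In the edgeR fit of 201802 windows, 334 of the 425 member windows passed the read filter, and 3 were called higher in B16 KO (0.898%, against 0.142% of all windows tested) and 0 lower (0.0178%). With an unadjusted p under 0.05 there were 23 (4.76% of all windows), and DESeq2 called 24 (4.75% of all windows). The Hmox2 window at 13.6 kb went from 0 RPM in each B16 control to 4.65, 4.93 and 5.75 RPM in KO libraries, next to 4.74 to 5.40 RPM in MC38 controls and 4.96 to 6.38 RPM in MC38 KO libraries (edgeR adjusted p = 0.002576). The Nr2c2 window at 28.6 kb went from 0 RPM in each B16 control to 3.68, 5.47 and 3.89 RPM, next to 2.39 to 6.12 RPM over MC38 (edgeR adjusted p = 0.007274). Both were higher in 3 of 3 KO libraries. The Aopep window at 75.1 kb went from 0 RPM to 3.57, 2.11 and 3.33 RPM, next to 4.93 to 9.32 RPM over MC38 (edgeR adjusted p = 0.003795). The Aopep window held no H3K9me3 island in any B16 library. Its H3K9Ac islands stood at different places, 77.5 to 82.9 kb in KO replicate 1, 73.1 to 76.5 kb in replicate 2 and both 73.3 to 76.5 and 79.3 to 82.5 kb in replicate 3. B16 control replicate 1 had an H3K9Ac island at 81.3 to 82.7 kb (163 reads), just outside the window. The 0 RPM of that control thus depends on where the window ends.

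These calls depend on the fit. With the replicate number as a block the edgeR adjusted p was 0.1663 for Hmox2, 0.191 for Nr2c2 and 0.1663 for Aopep. With B16 libraries fitted alone it was 0.6981, 0.7932 and 0.8172. Leaving out any 1 of the 12 libraries kept all 3 calls, with adjusted p of 0.001994 to 0.01252 for Hmox2, 0.006438 to 0.02774 for Nr2c2 and 0.003452 to 0.01774 for Aopep. The B16 islands behind all 3 had fewer reads per kb than the median H3K9Ac island of their library. The Rad51b window at 152.7 kb, with 0 RPM in each B16 control, 3.78, 3.63 and 4.07 RPM in KO libraries and 0 RPM in every MC38 library, was not called (unadjusted p = 0.01534, adjusted p = 0.8144, edgeR). Over the genome, 261 of the 262 called windows with islands in all B16 KO and no B16 control library also carried H3K9Ac islands in each of the 6 MC38 libraries, compared with 4.96% of the 1330 windows of that pattern that were not called. The Rad51b window is among those that lacked an H3K9Ac island in at least 1 MC38 library, of which 1 was called in the genome.

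**Figure D5:**
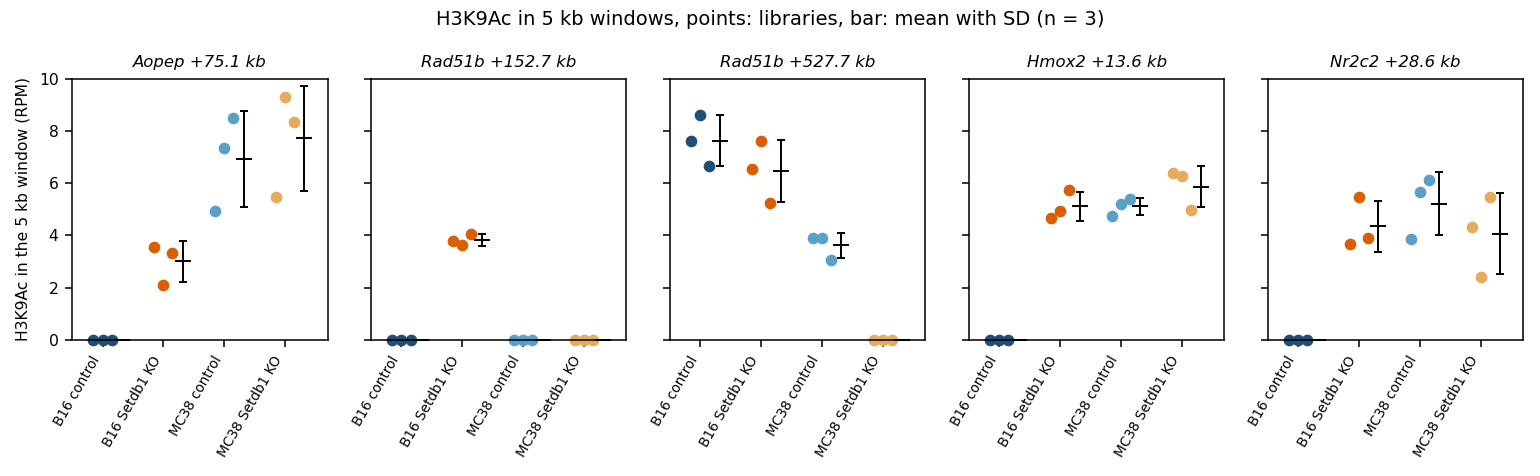
H3K9Ac in RPM of 5 windows of 5 kb, 1 point per library, with bars at the mean and error bars of 1 SD (n = 3). The Hmox2, Nr2c2, Aopep and Rad51b 152.7 kb windows are at 0 in B16 controls and above 2 RPM in B16 KO libraries, and the Rad51b 527.7 kb window is at 0 in MC38 KO.

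In MC38, 1 of the 334 member windows was called lower (0.299%, against 0.0297% of all windows) and 0 higher (0.05%), with 14 at an unadjusted p under 0.05 (3.76%) and 19 called by DESeq2 (3.74%). It lay at 527.7 kb in Rad51b, with 3.92, 3.89 and 3.06 RPM in MC38 controls and 0 RPM in each KO library, and 5.25 to 8.62 RPM over the B16 libraries (edgeR adjusted p = 0.004386). With the replicate block the adjusted p was 0.1481, and with MC38 fitted alone 0.9787. Its MC38 control islands held 177, 425 and 102 reads and were 2.4, 3.4 and 1.4 kb wide. For H3K9me3, 82 member windows passed the filter and edgeR called 0 in MC38 (0.0548% of all windows), with 1 at an unadjusted p under 0.05 (4.89%) and 0 by DESeq2 (5.42%).

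Genes related to 8 of the 9 by family or pathway were looked at in the same way. Of 70 relatives (cohesin, ADAM proteases, M1 aminopeptidases, metallo-beta-lactamase proteins, ABCA transporters, heme breakdown, orphan nuclear receptors and junction genes), 33 had no H3K9me3 island in any library. None had islands in all B16 controls and in no KO library, beside 2.1% of all regions tested. With so small a share over all regions, this count does not set the relatives apart. Of the 32 that could be tested for H3K9me3 in B16, edgeR called 0 (0.312% of all regions), 4 had an unadjusted p under 0.05, all lower (7.73% of all regions, both directions), and the median difference was -0.47 on the log2 scale beside 0.0 over all regions. In 6 of the 32 every KO library lay below every control, beside 9.44% of all regions. Adam23, another ADAM gene, had 69.5 ± 22.7 RPM in B16 controls and 17.1 ± 2.99 RPM in KO libraries (SD, n = 3, edgeR adjusted p = 0.6177). Magi1, a junction scaffold, had 66.8 ± 28.4 and 4.07 ± 3.63 RPM (adjusted p = 0.6241). Enpep, another M1 aminopeptidase gene, had 5.66 ± 4.91 RPM in B16 controls and no island in B16 KO libraries (edgeR adjusted p = 0.3207), beside 135 ± 39.2 RPM in MC38 controls. Abca8b, a close relative of Abca8a, had 17.6 ± 22.7 RPM in B16 controls and no island in KO libraries (adjusted p = 0.5739). Abca9, of the same gene family as Abca8a, had 54.4 ± 22.2 and 55.9 ± 10.7 RPM. In the cohesin and heme breakdown lists 10 of 12 and 2 of 4 genes had no island in any library.

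For H3K9Ac, 69 relatives were tested in each line, with 0 called by edgeR in B16 (0.0839% of all regions) and 5 at an unadjusted p under 0.05 (4.12%). In MC38 1 was called (0.126%), and 4 had an unadjusted p under 0.05 (3.13%). The called gene was Abca1, the cholesterol exporter, at 8.73 ± 0.26 RPM in MC38 controls and 20.7 ± 1.73 RPM in MC38 KO libraries (SD, n = 3, log2 1.25, SE 0.119, edgeR adjusted p = 0.003054). With the replicate block the adjusted p was 0.05781, with MC38 fitted alone 1.0 and without the flanks 0.1205. In 2 kb around the gene start it was 0.597, and stricter islands did not give a call either. The call was kept by DESeq2 (2.524e-17), by edgeR with its size factors (0.004073) and without the read filter (0.003565). Leaving out any library kept it too.

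The H3K9me3 profile nearest to the mean of the 9 over the 12 libraries of that mark (Pearson's r on log2 levels, 10263 genes compared) belonged to Gm39701 (0.937), Gipc2 (0.936), Lekr1 (0.928), Zfp949 (0.910) and Pkia (0.909). Lekr1 had 54.5 ± 11.5 RPM in B16 controls and none in B16 KO libraries. Zfp949, a zinc finger gene, had 71.4 ± 6.29 RPM in B16 controls and 24.5 ± 2.16 RPM in KO libraries (SD, n = 3). These libraries are those that chose the 9 genes, so the likeness is a description.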

How the data were processed

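The authors' deposited files list, for each of 24 libraries, islands with their read counts on mm10. Per the submitters' processing notes, the tools included cutadapt, Bowtie2 2.1.0, SAMtools 0.1.8, SICER 1.1 and deepTools 3.1.1. Islands were built from bins of 200 bp with gaps of up to 600 bp, per the file names. Per the labels, H3K9me3 was done on 4 times as many cells as H3K9Ac. The sources used here do not say how reads mapping to several places were treated. A stretch outside islands has no deposited count, and the counts are not scaled to input or depth.

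Island counts were shared out by overlap over gene regions (RefSeq start to end plus 2 kb on each side) and a fixed grid of 5 kb windows. Features with a mean of at least 10 reads over the 12 libraries of a mark were fitted in edgeR 4.0.16 (R 4.3.3; TMM, quasi-likelihood, all 4 groups of a mark, 1 mean per group), with Benjamini-Hochberg adjustment over all features and calls at an adjusted p under 0.05. RPM are TMM-scaled counts per 1000000 counted reads, on separate scales for regions and windows. Exact permutation of 3 against 3 libraries cannot go below p = 0.1, so it was not used. Scripts were tested on simulated data.

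DESeq2 1.42.0, its size factors, no read filter, no flanks, stricter islands (reads per kb at or above the median island of the library), each line alone, a replicate block and leaving out each library were the alternatives. Same-numbered control and KO libraries deviated together for H3K9Ac (r of 0.267, 0.531 and 0.496 in B16, 0.156, 0.497 and 0.387 in MC38), so blocked values stand beside the calls they change. No label says what a number stands for.

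The genes and the lists of relatives and markers were chosen with earlier results of these data known. Named are the 9 genes, overlapping genes, relatives that were called or had the smallest p of their list (Abca9 was chosen after its values were seen), and the 5 protein-coding genes whose H3K9me3 profile correlated best with the mean of the 9. Loci and the windows meeting island patterns were picked after the islands had been seen. The relatives of 1 gene are not reported here. Exons and introns were not analysed here.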

Additional observations from a re-analysis of the deposited data

Results flagged for a closer look

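In 4 member windows the KO effect on H3K9Ac differed between B16 and MC38 (edgeR's test of that difference, adjusted over all windows). They are the windows already called above for KO against control in B16 or MC38, so they are not separate results. The share of all windows called for this difference is not given here, for edgeR or DESeq2, so the count has no background beside it. For Hmox2 at 13.6 kb the adjusted p was 0.004496, with 0 RPM in each B16 control, 4.65 to 5.75 RPM in B16 KO libraries and 4.74 to 6.38 RPM over the 6 MC38 libraries. For Nr2c2 at 28.6 kb it was 0.01029, with 0 RPM in each B16 control, 3.68 to 5.47 RPM in B16 KO libraries and 2.39 to 6.12 RPM over MC38. For Aopep at 75.1 kb it was 0.006749, with 0 RPM in each B16 control, 2.11 to 3.57 RPM in B16 KO libraries and 4.93 to 9.32 RPM over MC38. For Rad51b at 527.7 kb it was 0.004763, with 5.25 to 8.62 RPM over the 6 B16 libraries, 3.06 to 3.92 RPM in MC38 controls and 0 RPM in each MC38 KO library. With the replicate number as a block none of the 4 passed, with adjusted p of 0.1087 for Hmox2, Aopep and Rad51b and 0.1215 for Nr2c2. DESeq2 gave 1.548e-12, 6.763e-11, 6.067e-10 and 1.768e-10 in the order of the sentences above. Just outside the Aopep window, B16 control replicate 1 had an H3K9Ac island at 81.3 to 82.7 kb.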

How the results depend on the processing

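Counts of calls over the whole tables moved with the fit. DESeq2 called 1840 gene regions for H3K9me3 in MC38 (35 in edgeR), 1024 for H3K9Ac in B16 (28) and 874 in MC38 (42), and 14621, 9577 and 7557 windows (148, 322 and 161). With the replicate block each of these 6 counts was 0, and with a line alone 0 except for 27 H3K9me3 windows. Stricter islands left 5 H3K9me3 regions in MC38, 49 H3K9me3 windows and 90 H3K9Ac windows in MC38. Without flanks there were 23 H3K9me3 regions in MC38, and in 2 kb around the gene start 18 H3K9Ac regions in MC38. Leaving out 1 library gave 10 (without B16 KO replicate 3) to 154 (without MC38 KO replicate 2) H3K9me3 regions, 17 to 67 and 29 to 119 H3K9Ac regions in B16 and MC38, 83 to 739 H3K9me3 windows, and 237 to 786 and 92 to 635 H3K9Ac windows in B16 and MC38. The causes were not tested.

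The count of genes without a KO island was 5 with stricter islands or at least 500 bp, 6 without flanks and 5 or 6 with 1 library left out. The 21 windows with focal loss became 4 when 2500 bp had to be covered, 10 with stricter islands and 22 to 30 with 1 library left out. Leaving out a library can only loosen the rules behind these counts of genes and windows, so both could only stay or rise. Stricter islands left no B16 island in the called windows of Hmox2, Nr2c2 and Aopep and 1 MC38 control island in that of Rad51b, so these gave no value. For H3K9me3 the replicate numbers paired the libraries only in part (r of 0.211, 0.171 and 0.013 in B16, 0.308, 0.224 and -0.254 in MC38). The same number gave the highest r for replicates 1 and 2 of B16 and replicate 1 of MC38, and not for the others.

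The differences of the 9 regions that changed sign were not called in either direction. For H3K9me3 in MC38, Mblac2 was 0.077 without flanks. For H3K9Ac in B16, Stag1 was -0.14 with stricter islands, Adam12 -0.033 with the block, and Aopep, Rad51b and Nr2c2 were -0.11, -0.35 and -0.23 around the gene start. For H3K9Ac in MC38, Cgnl1, Aopep and Hmox2 were 1.68, 0.023 and -0.42 around the gene start, Stag1 0.012 with the block, and Stag1, Adam12, Abca8a and Nr2c2 were 0.049, 0.28, 0.30 and 0.24 with stricter islands. Leaving out 1 library gave ranges across 0 for H3K9me3 in MC38 of Adam12 (-1.13 to 0.21), Aopep (-0.85 to 0.24), Mblac2 (-0.53 to 0.11) and Abca8a (-0.69 to 1.05). For H3K9Ac in B16 they were Stag1 (-0.22 to 0.72), Adam12 (-0.34 to 0.22), Aopep (-0.23 to 0.35), Abca8a (-0.80 to 1.36), Rad51b (-0.22 to 0.44) and Nr2c2 (-0.13 to 0.18). For H3K9Ac in MC38 they were Cgnl1 (-0.35 to 0.14), Stag1 (-0.22 to 0.19), Adam12 (-0.75 to 0.13), Aopep (-0.37 to 0.062), Abca8a (-0.72 to 0.41), Rad51b (-0.12 to 0.088) and Nr2c2 (-0.28 to 0.009).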

Other observations

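Of the 63 H3K9me3 loci, 13 were called in MC38 alone, and 8 of the 13 lay in Adam12. The widest of these, at 307.8 to 313.6 kb, was in MC38 KO replicate 3 alone (445 reads), and the one at 269.0 to 274.0 kb was in MC38 controls 2 and 3 (160 and 199 reads) and in KO replicate 3 (204 reads). In Nr2c2 an H3K9me3 island of MC38 control replicate 2 (70.0 to 73.8 kb, 153 reads) lay on a stretch whose 3800 bp were under H3K9Ac islands in all 12 libraries of that mark. Islands of both marks also shared the Rad51b locus at 428.7 to 434.5 kb, where H3K9Ac covered 1600 bp in replicate 2 of B16 controls and of B16 KO cells and 0 bp in the other 10 libraries.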
